A study of Mus musculus with 3 samples.

Results

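Crosslinks of Tra2β at nucleotides of the mouse genome (GRCm39) where the GENCODE M39 annotation has no gene on either strand are described here. They were taken from the crosslink maps of all 3 libraries by that rule alone, and each position was weighted by its count of unique cDNAs. Of 1354357 crosslinked positions in the series, 152523 were intergenic in this sense. Replicates 1, 2 and 3 held 29738, 89764 and 34312 of these positions, with 30610, 93018 and 36883 intergenic crosslinks among 348033, 619571 and 488719 crosslinks in all.

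The study mapped RNA contacts of endogenous Tra2β by iCLIP, which uses ultraviolet light to fix a protein to the RNA that it touches and reads the contact from the end of the cDNA. All 3 libraries form 1 group of biological replicates, prepared from testes of adult mice of wild type genotype, using a polyclonal anti-Tra2b antibody (Abcam, ab31353). The study kept its mice on a C57BL/6J background. The tissue held mixed cell types, and the age of the mice in weeks or months is not given in the sources used here. No library without the antibody was analysed here, so comparisons were made within a library, between strands, distances and sequences. All 10 germ cell marker genes examined had crosslinks in each library, with 959, 491 and 1709 crosslinks in replicates 1, 2 and 3, whereas the 4 Sertoli cell markers held 30, 61 and 39 and the 4 Leydig cell markers 33, 28 and 41. These sums are over unlike numbers of genes and are not scaled. Among the Sertoli cell markers, Amh had none in any library, whereas Wt1 held 27, 52 and 31. Dazl, the lowest germ cell marker in each library, held fewer than Wt1, with 10, 9 and 25.

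Transcription by RNA polymerase II does not stop at the annotated end of a gene, and the RNA made past the cleavage site is normally degraded quickly. The testis is known for unusually broad transcription of the genome, including long non-coding RNAs and the long precursors of piRNAs, which arise from intergenic loci and are often made from promoters that fire in both directions. Tra2β is a splicing activator whose RNA recognition motif prefers GAA-rich RNA, and an intergenic crosslink can also come from a short RNA with many copies in the genome, such as a small nuclear RNA.

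Sequences under 2 kinds of intergenic sites are shown first. A cluster is a run of crosslinks on 1 strand with gaps of up to 20 nt, and the clusters below held crosslinks from each library. Clusters are numbered by their mean CPM, the crosslinks scaled to a library total of 1000000. All sequences are from GRCm39, in the sense of the crosslinked strand. A group of 4 clusters lay at the first bases of U1 small nuclear RNA, the part of the spliceosome that pairs with the 5′ splice site, and these 15 bases are in capitals. Clusters 6 and 60 end directly before a small nuclear RNA gene, so that their capitals lie within the annotated gene.
cluster 2, chr12:54760984-54761013, plus strand: tcaggaactcATACTTACCTGGCAGgggag
cluster 6, chr12:54743557-54743586, plus strand: ctcgcaactcATACTTACCTGGCAGgggag
cluster 54, chrX:115568761-115568790, plus strand: tcacagccatATACTTACCTGGCAGgggag
cluster 60, chr4:51812628-51812657, minus strand: tatataattgATACTTACCTGGCAGgggag
Crosslinks also formed long stretches of at least 5 kb, described further on. The 30 nt with the most crosslinks are shown for 6 of the 7 strongest, with every GAA, the triplet at the centre of Tra2β binding sites, in capitals. Long stretch 4 is given by its counts alone, a choice made by its chromosome and not by its values.
long stretch 1, chr6:42990717-42990746, minus strand: ccaaaccatGAAgaggcctatccccgacat
long stretch 2, chr12:98351616-98351645, minus strand: agttctcatgctacaaaacttaccagtata
long stretch 3, chr7:72762323-72762352, plus strand: aaGAAGAAGAAGAAGAAGAAGAAGAAGAAg
long stretch 5, chr14:101446841-101446870, plus strand: agataatGAAGAAagagGAAGAAaaaaaag
long stretch 6, chr2:92377693-92377722, plus strand: caacGAAgactagGAAgacagGAAacgttc
long stretch 7, chr4:4799106-4799135, plus strand: GAAgGAAgGAAgGAAgGAAgGAAgGAAgga
These sites are shallow, since those of long stretches 3, 6 and 7 held 5, 1 and 7, 0, 2 and 2, and 2, 3 and 1 crosslinks in replicates 1, 2 and 3. Those of long stretches 1, 2 and 5 rest mostly or wholly on replicate 2, with 4, 40 and 3, 1, 6 and 0, and 0, 8 and 0. The repeats shown for long stretches 3 and 7 also recur in the genome, so the place of their crosslinks is uncertain. The 25 nt around the strongest position of the cluster there had 236209 copies for long stretch 3 and 378 for long stretch 7, against 1 for long stretch 1.

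Intergenic sequence was crosslinked sparsely, and most of these contacts were seen once. It held 8.80%, 15.01% and 7.55% of the crosslinks of replicates 1, 2 and 3, against 43.3% of the bases of both strands. The Clopper-Pearson 95% intervals, which cover counting error only, were 8.70 to 8.89%, 14.9 to 15.1% and 7.47 to 7.62%. The mean was 10.5% ± 3.999 (SD, n = 3). This gave 13.3, 40.4 and 16.0 crosslinks per Mb of strand in replicates 1, 2 and 3. Introns on their own strand had 111, 212 and 126 per Mb, and the strand opposite to a gene had 15.1, 49.7 and 17.2. Intergenic density was thus somewhat below antisense density and far below that of introns in each library. The share of intergenic positions supported by a single cDNA was 98.8%, 98.5% and 97.9%. Of the 152523 positions, 915 were seen in 2 libraries and 188 in all 3.

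Replicate 2 stood apart from the other libraries in several measures. It had the highest intergenic share, and its crosslinked intergenic nucleotide was T in 29.1% of crosslinks, against 46.8% and 46.5% in replicates 1 and 3. The nucleotide was A in 30.3% of its crosslinks, against 17.8% and 17.4%. The same was seen in introns, where T made up 34.4% in replicate 2 and 51.4% and 52.1% in replicates 1 and 3. The part of this difference in the results below was not tested, and values are therefore given for each library.

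The first question was how far crosslinks followed the ends of genes, the pattern that read-through RNA would give. Density on the strand of the gene was highest just past its end and fell with distance in each library. Within 1 kb downstream of the nearest same-strand gene end there were 54.5, 114 and 66.9 crosslinks per Mb in replicates 1, 2 and 3. From 1 to 5 kb the density was 37.9, 87.6 and 43.3 per Mb, and from 5 to 10 kb it was 24.8, 65.4 and 30.04. From 10 to 50 kb it was 15.2, 44.1 and 18.2 per Mb. Beyond 50 kb it was 6.70, 27.5 and 8.31 per Mb. The order of the 5 distance classes was the same in all 3 libraries. The ratio of the first class to the last was 8.13, 4.15 and 8.05, with a mean of 6.78 ± 2.28 (SD, n = 3), and it was 8.09 without replicate 2.

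**Figure D1:**
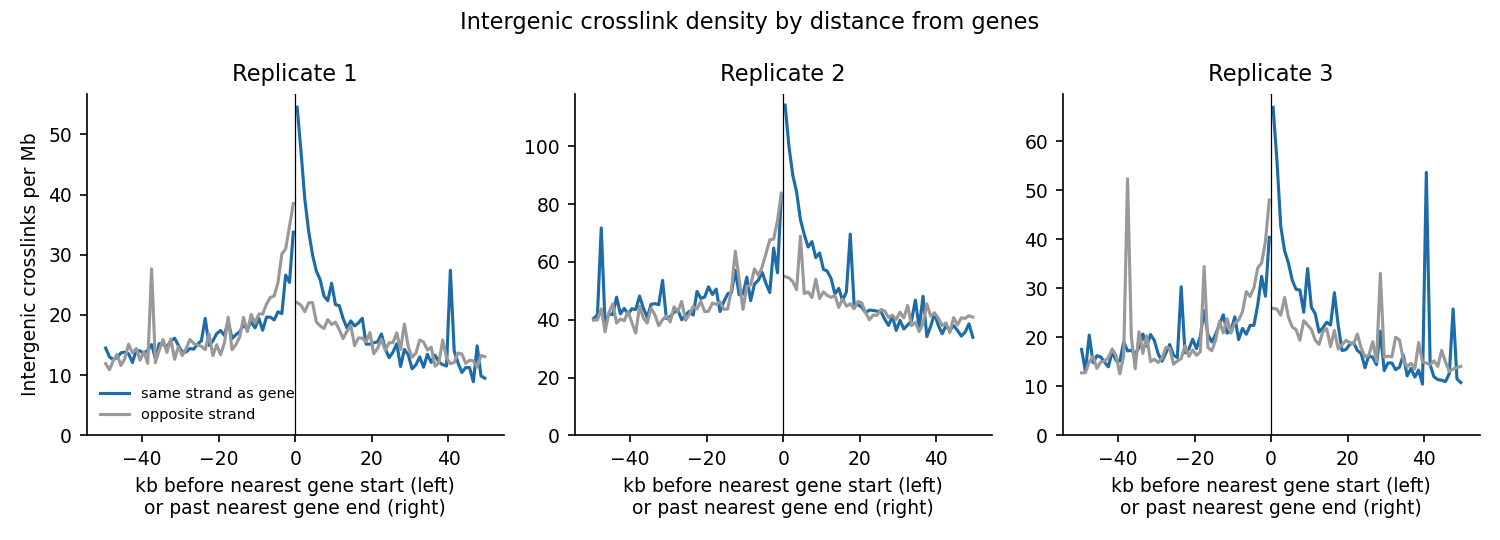
Intergenic crosslinks per Mb in 1-kb bins, for each library, against distance past the nearest gene end (right of 0) or before the nearest gene start (left of 0), on the strand of that gene (blue) and on the other strand (grey). Past the end the blue line starts at 54.5, 114 and 66.9 per Mb in replicates 1, 2 and 3 and decays, and from 1 to 5 kb before the start the grey line averages 30.4, 68.3 and 34.8 per Mb against 23.3, 55.8 and 27.6 for the blue line.

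Most intergenic crosslinks nevertheless lay far from a gene end, because most intergenic bases do. Only 7.26%, 5.01% and 7.40% of them were within 1 kb downstream, which holds 1.77% of the intergenic bases. The class from 10 to 50 kb held 35.2%, 33.7% and 35.2% and 30.9% of the bases. Beyond 50 kb were 27.4%, 37.1% and 28.2% of the crosslinks and 54.5% of the bases.

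The strand opposite to the gene served as a comparison with the same mappability and base pairs. Within 1 kb of gene ends it held 22.0, 54.9 and 25.9 crosslinks per Mb. Density on this strand also fell with distance, to 10.5, 35.6 and 12.8 per Mb beyond 50 kb, so part of the decay was not particular to the strand of the gene. The ratio of same-strand to opposite-strand crosslinks was therefore 2.47, 2.08 and 2.58 there, with a mean of 2.38 ± 0.265 (SD, n = 3). The ratio was 1.67 ± 0.107 from 1 to 5 kb, 1.35 ± 0.0305 from 5 to 10 kb and 1.02 ± 0.00926 from 10 to 50 kb. The ratio was above 1 in each library in all 4 of these classes, and in the last by less than 0.03. From 10 to 50 kb the 95% interval of the same-strand share was 50.3 to 51.1% in replicate 2. It resolved no order in replicates 1 (49.5 to 50.9%) and 3 (49.8 to 51.1%). This class held 10771 same-strand and 10680 opposite-strand crosslinks in replicate 1, and 12966 and 12737 in replicate 3. Cluster 1, described below, gave 203 and 548 of these same-strand crosslinks, more than the excess in either library. In replicate 2 it gave 28. Beyond 50 kb the order was reversed in each library, with ratios of 0.640, 0.773 and 0.647 and a mean of 0.687 ± 0.0753. In this class only the same-strand crosslinks have to lie far past a gene end of their own strand. Those on the opposite strand may lie just past genes of theirs, so the class definition by itself can lower this ratio. The share of this in the reversal was not tested. When only bases over 10 kb from every gene of the opposite strand were used, an alternative chosen after the data were seen, the ratio within 1 kb rose to 3.46. With 3 libraries the smallest two-sided p of an exact sign-flip test is 0.25, so no such test was made.

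Upstream of genes the strands were ordered the other way. From 1 to 5 kb before a gene start, the strand of the gene held 23.3, 55.8 and 27.6 crosslinks per Mb and the opposite strand 30.4, 68.3 and 34.8, a ratio of 0.791 ± 0.0264 (SD, n = 3). Within 1 kb the ratio was 0.877, 0.988 and 0.841. From 5 to 10 kb it was 0.880, 0.960 and 0.837. Up to 10 kb, crosslinks that ran away from a gene start were thus denser than those that ran towards it, except that within 1 kb in replicate 2 the same-strand share of 49.7% (95% interval 48.42 to 50.9985%) did not resolve an order. Farther out the order of the mean was reversed, with ratios of 1.03 ± 0.0192 from 10 to 50 kb and 1.08 ± 0.0605 beyond. From 10 to 50 kb the 95% interval of the same-strand share resolved no order in replicates 1 (49.9 to 51.2%) and 3 (49.9 to 51.1%). Beyond 50 kb it resolved none in replicate 2 (49.9 to 50.5%). Here too the classes set no limit on the distance to genes of the opposite strand.

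The last nucleotides before a gene start were an exception. From 1 to 10 nt before the start there were 73, 506 and 79 same-strand crosslinks in replicates 1, 2 and 3, against 6, 34 and 11 on the opposite strand. From 11 to 50 nt there were 78, 113 and 140 against 51, 117 and 53, an excess in replicates 1 and 3 alone. The last nucleotide by itself held 35, 243 and 35 same-strand crosslinks in replicates 1, 2 and 3 and 0, 3 and 3 on the opposite strand. Of the same-strand crosslinks at this nucleotide, 31, 236 and 30 were next to genes for small nuclear RNAs. Gm22513, an annotated small nuclear RNA gene that begins 1 nt past cluster 6, accounted for 25, 120 and 21. Gm23240 had 0, 50 and 1, nearly all in replicate 2, and Gm22042, next to cluster 60, had 1, 17 and 7. In iCLIP the crosslink is placed 1 nt before the end of the cDNA, so a cDNA copied to the very start of an RNA is placed 1 nt outside the gene.

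Genes that were themselves crosslinked had more crosslinks behind them. For 14003 protein-coding genes with at least 1 kb of intergenic sequence behind them, density within 10 kb downstream was 8.32, 29.6 and 9.18 per Mb in replicates 1, 2 and 3 where the gene had no crosslink in that library. With 1 to 9 crosslinks in the gene it was 37.0, 73.8 and 37.9 per Mb. With 10 to 49 it was 103, 166 and 98.2 per Mb, and with 50 or more it was 157, 348 and 182. The order was the same in each library. Across these genes Spearman's rho was 0.338, 0.329 and 0.342, given as a description, since both counts come from 1 library and genes are not independent replicates. In all, 15271 genes had an intergenic crosslink within 10 kb downstream in any library. The number with at least 1 in each library was 2290, of which 884 were protein coding and 1189 were lncRNA genes. The annotation holds 78289 gene bodies. Their gene types were not counted, so whether either type was over-represented was not tested.

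The 10 genes with the most intergenic crosslinks within 10 kb downstream showed 2 patterns, spread and concentrated. Gm67022, a short lncRNA gene of 0.609 kb (chromosome 6), had 96, 92 and 114 crosslinks behind it in replicates 1, 2 and 3 and 6, 13 and 8 inside, and the largest cluster held 6.95% of those behind it. Rbmxl2, an intronless germ cell gene for an RNA-binding protein related to RBMX, had 30, 53 and 38 behind it and 5, 6 and 7 inside (chromosome 7). Its downstream level was the most even of the 10, at 83.2 ± 4.70 CPM (SD, n = 3). The lncRNA gene 1700042G15Rik had 36, 95 and 47 behind it against 14, 20 and 24 inside. The protein-coding gene 4930474N05Rik had 24, 72 and 47 behind it, about as many as the 24, 75 and 41 inside. Gm59943 had 49, 32 and 60 behind it and 0, 1 and 4 inside, and Gm73408 had 24, 28 and 63 against 4, 2 and 2. For these genes more RNA contacts were mapped behind the annotated gene than in it, or about as many, in each library. These are counts not scaled to length. The genes, from 0.351 kb for Gm59943 to 5.198 kb for 4930474N05Rik, are shorter than the 10 kb searched behind them. They were also picked by their downstream counts, so no higher density outside the gene can be read from this.

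In 3 of the 10 genes the downstream crosslinks lay in 1 cluster. Reck, which encodes an inhibitor of matrix metalloproteinases, had 49, 5 and 148 crosslinks behind it, with 97.5% in 1 cluster. Smarcc1, a subunit of the BAF chromatin remodelling complex, had 27, 18 and 71, with 97.4% in 1 cluster. Gm2885 had 37, 54 and 54, with 95.2% in 1 cluster. Gm61783, on the X chromosome, was spread along the sequence but nearly confined to replicate 2, with 4, 206 and 3 crosslinks behind it. The high rank of Gm61783 thus rests on replicate 2.

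The next question was where intergenic crosslinks recurred between libraries. Of 139974 intergenic clusters, 373 held a crosslink from each library, which is 0.266%. Over the clusters of all classes in the genome the share was 1.11%. Among clusters with at least 10 crosslinks, 125 of 203 intergenic clusters were seen in all 3 libraries, which is 61.6%, against 69.4% over all classes. The 373 clusters held 5.99%, 3.28% and 9.76% of the intergenic crosslinks of replicates 1, 2 and 3, with a mean of 6.34% ± 3.25 (SD, n = 3). Counting each position once lowered this mean to 3.22%. Without replicate 2, where a cluster needs crosslinks from replicates 1 and 3 alone, it was 10.98%. In contrast, 41.0%, 51.3% and 37.9% of intergenic crosslinks were alone, with no other crosslink of any library within 1 kb on their strand.

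By distance past the nearest same-strand gene end, 30 of the 373 clusters were within 1 kb, 78 from 1 to 5 kb, 50 from 5 to 10 kb, 107 from 10 to 50 kb and 108 beyond. The share beyond 50 kb was 28.95%, against 33.6% of all intergenic clusters, and the share within 1 kb was 8.04% against 5.87%.

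The strongest cluster, cluster 1, held 203, 28 and 548 crosslinks in replicates 1, 2 and 3, or 583, 45.2 and 1121 CPM. Replicate 2 was far below the other libraries, and the SD over the 3 libraries, 538 CPM, was nearly as large as the mean. Cluster 3 (57, 10 and 223 crosslinks), cluster 4 (58, 12 and 186), cluster 5 (55, 10 and 187) and cluster 7 (48, 3 and 146) had the same order of libraries. Replicate 2 was the lowest library by CPM in 226 of the 373 clusters and the highest in 110. It is the deepest library, so a cluster with 1 crosslink in each library ranks it lowest by CPM. Many weak clusters are of this kind, and the count of 226 therefore says little about library order. A stretch of 25 nt around the strongest position occurred once in the genome for 283 of the 373 clusters, or 75.9%. It occurred more than once for 6 of clusters 1 to 8, with 48 copies for cluster 1, 10 for cluster 2, 8 for cluster 3, 3 for cluster 8 and 2 each for clusters 5 and 7. How reads with several matches were placed is not given in the sources used here.

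**Figure D2:**
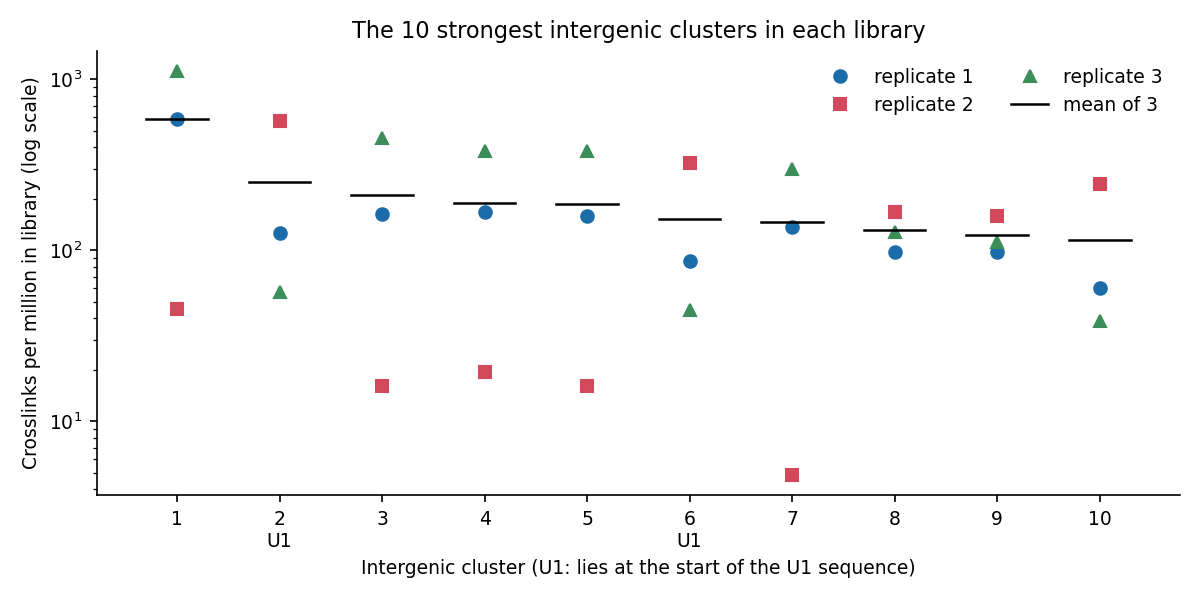
CPM (log axis) in each library for the 10 intergenic clusters with the highest mean, marked below where the cluster lies at the start of the U1 sequence. Replicate 2 (squares) is lowest in clusters 1, 3, 4, 5 and 7 and highest in clusters 2, 6, 8, 9 and 10.

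Clusters with the start of U1 had the other order of libraries. They were clusters 2, 6, 54 and 60, with 78, 612 and 61 crosslinks in replicates 1, 2 and 3, and replicate 2 was the highest by CPM in each. Cluster 2 held 44, 352 and 28, and cluster 6 held 30, 201 and 22. Clusters 54 and 60 held 3, 33 and 4 and 1, 26 and 7. The strongest position was 1 nt before the first base of the U1 sequence in clusters 6 and 60, whereas in clusters 2 and 54 it was 10 nt after it. The sequence of each, with 40 nt on either side, matched annotated small nuclear RNAs in sense over 33 to 76 nt. For clusters 6 and 60 the 40 nt downstream lie in the annotated gene itself, so their matches of 40 nt were fixed in advance. A further 5 clusters matched the ribosomal RNA gene Rn18s-rs5 over at least 20 nt, and their counts summed to 13, 70 and 16.

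The clusters seen in all 3 libraries other than those at U1 held 5.74%, 2.62% and 9.60% of intergenic crosslinks. Several were more even between libraries than cluster 1. Cluster 8 (chr6:42990781-42991284, minus strand) had 34, 104 and 63 crosslinks over 504 nt, or 131 ± 35.2 CPM. Cluster 9 on chromosome 10 (chr10:11367857-11367970, minus strand) had 34, 98 and 55, or 123 ± 31.5 CPM. Cluster 10 on chromosome 2, 34549 nt past the phosphatase gene Ptprj, had 21, 152 and 19, and replicate 2 was the highest. Beyond 50 kb from any same-strand gene end, the 5 strongest clusters were clusters 5, 8 and 9, a cluster on chromosome 8 (chr8:15569869-15569956, plus strand) with 34, 54 and 74 crosslinks, and a second one beside cluster 8 with 25, 120 and 20.

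Longer units were then built by joining crosslinks on a strand at gaps of up to 1 kb. With at least 3 crosslinks in each library and more than 5 kb to the nearest same-strand gene end, 327 such stretches were found. They held 10.5%, 6.92% and 14.7% of the intergenic crosslinks of replicates 1, 2 and 3. By length, 40 were under 200 nt, 14 from 200 nt to 1 kb, 156 from 1 to 5 kb and 117 were 5 kb or longer. Of the 10 strongest stretches, 7 were clusters 1 to 7 with few or no crosslinks around them, and the other 3 were 5 kb or longer. A gene of 1 kb or more on either strand ended a stretch, whereas a shorter gene could be bridged. Joining the pooled libraries at gaps of up to 1 kb can also merge separate RNAs. The length of a stretch is therefore not the length of 1 transcript.

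The long stretches were crosslinked on 1 strand. Over the 117, 98.6% of crosslinks in the covered interval were on the strand of the stretch, and in 106 the share was at least 95%. The choice of 1 strand for each stretch favours it, so this is given without a test. The densest long stretch (chr6:42975764-42994841, minus strand) covered 19078 nt and held 158, 484 and 229 crosslinks in replicates 1, 2 and 3. On the other strand of the same interval there were 0, 1 and 0. It contains cluster 8, and 22.7% of its words of 15 nt occurred more than once within it. The nearest same-strand gene end lay 63611 nt upstream and the next same-strand gene 223150 nt downstream.

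Long stretch 2 (chr12:98338659-98376076, minus strand) was the longest, at 37418 nt, and had 103, 108 and 229 crosslinks, against 0, 5 and 3 on the other strand. It follows the short lncRNA gene Gm59943, whose end is 9896 nt upstream. On the far side of Gm59943 and on the plus strand lay long stretch 10 (chr12:98386521-98395493), with 22, 27 and 61 crosslinks, whose 5′ end was 199 nt from the start of Gm59943. Replicate 3 had the most crosslinks in both. Long stretch 3 (chr7:72755074-72774138, plus strand), which holds the GAA repeat shown above, had 106, 77 and 224, against 4, 7 and 3 on the other strand. The start of a same-strand gene lay 61 nt downstream of a crosslink in long stretch 3, and whether both belong to 1 RNA was not tested. The 5′ end of the stretch was 39 nt from the start of Gm73809, an lncRNA gene on the other strand. A stretch on the minus strand 1168 nt away had 8, 10 and 20. Both loci thus had crosslinked RNA running in 2 directions away from 1 place.

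A stretch on the other strand with at least 3 crosslinks in each library, running away from within 20 kb of the 5′ end, as at these loci, was found for 6 of the 117 long stretches and 10 of all 327. An annotated gene running the other way was more frequent. The 5′ end lay within 1 kb of the start of a gene that points the other way for 30 of the 117 long stretches, or 25.6% (95% interval 18.02 to 34.5%), and in 12 of these the gene was protein coding. For stretches from 1 to 5 kb the number was 44 of 156, or 28.2%, and for those under 1 kb it was 3 of 54, or 5.56%. Intergenic bases placed in that way make up 1.53% of all intergenic bases. Intergenic crosslinks placed in that way were a larger share, with 1354 of 30610, 2947 of 93018 and 1688 of 36883 in replicates 1, 2 and 3. Because genes of 1 kb or more end a stretch, some 5′ ends lie beside a gene by construction, and no test was made. Long stretch 7 on chromosome 4 (37, 80 and 38 crosslinks) began 78 nt from the start of Bpnt2, which encodes a phosphatase of the Golgi. Long stretch 8 on chromosome 15 (43, 50 and 46) began 64 nt from the start of Pacsin2, which encodes a protein that shapes membranes. Long stretch 6 on chromosome 2 (36, 60 and 68) began 256 nt from the start of the lncRNA gene Gm13817, and long stretch 4 on chromosome 18 (42, 56 and 75) began 297 nt from that of Gm50166. Long stretches 5 (47, 75 and 44) and 9 (23, 98 and 26) had no such start within 1 kb. The nearest start of a same-strand gene downstream of a crosslink lay 351 nt away in long stretch 6 and 1884 nt in long stretch 5. In long stretches 4, 7, 8 and 9 it lay 9290, 66961, 36793 and 129676 nt away.

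**Figure D3:**
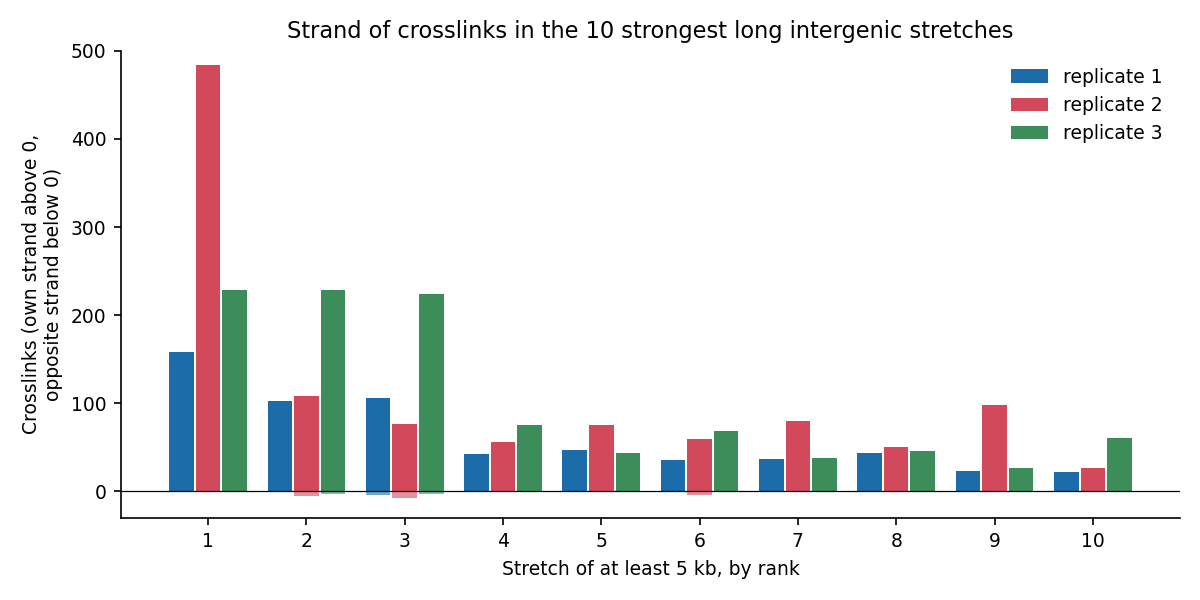
Crosslinks in each library on the own strand (above 0) and on the opposite strand (below 0) of the 10 intergenic stretches of at least 5 kb with the highest mean CPM. Counts on the opposite strand do not exceed 7 in any library, whereas the own strand has 22 to 484.

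Along the chromosomes, intergenic density over the mean of the autosomes was highest on chromosome 11, at 1.26 ± 0.0564, and lowest on the Y chromosome, at 0.0474 ± 0.00823 (SD, n = 3). The X chromosome was also low, at 0.290, 0.530 and 0.339 in replicates 1, 2 and 3. Introns were likewise high on chromosome 11, at 1.16 ± 0.00996, although chromosome 17 was higher still at 1.17 ± 0.0304, and both sex chromosomes were the lowest, with 0.261 ± 0.0511 for X and 0.0770 ± 0.00509 for Y. In replicate 2, 359 of 4885 crosslinks on X lay in the stretch behind Gm61783, and without it the value was 0.491. Both sex chromosomes are known to be silenced in germ cells during meiosis, and whether this bears on the low values was not tested.

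Finally, sequence around intergenic crosslinks was compared with the flanks of the same loci. The ratio is the share of crosslinks with a sequence starting within 30 nt, over the mean share in equal windows centred 200 nt upstream and downstream. GAA was within 30 nt of 71.3%, 79.1% and 72.4% of intergenic crosslinks, against 68.9%, 73.1% and 68.9% in the flanks, so that the ratio was 1.04, 1.08 and 1.05. The mean of 1.06 ± 0.0240 (SD, n = 3) was within the spread of that in introns, 1.05 ± 0.0465, and below that in exons, 1.15 ± 0.0409. The recurrent clusters had another order of libraries. In the 373 clusters seen in all 3 libraries the ratio was 1.26, 0.883 and 1.35, and in stretches under 200 nt it was 1.58, 1.01 and 1.63, with replicate 2 the lowest in both. In stretches of 5 kb and over it was 0.978, 1.1045 and 1.01, with replicate 2 the highest. By nucleotide, a GAA started at 2.33%, 4.19% and 2.26% of the positions 1 to 30 nt after the crosslink, against 2.17%, 2.53% and 2.18% more than 200 and up to 300 nt away on both sides. The rise was thus clear in replicate 2 and small in replicates 1 and 3. Purines made up 51.6%, 59.4% and 52.2% of the 30 nt on either side.

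**Figure D4:**
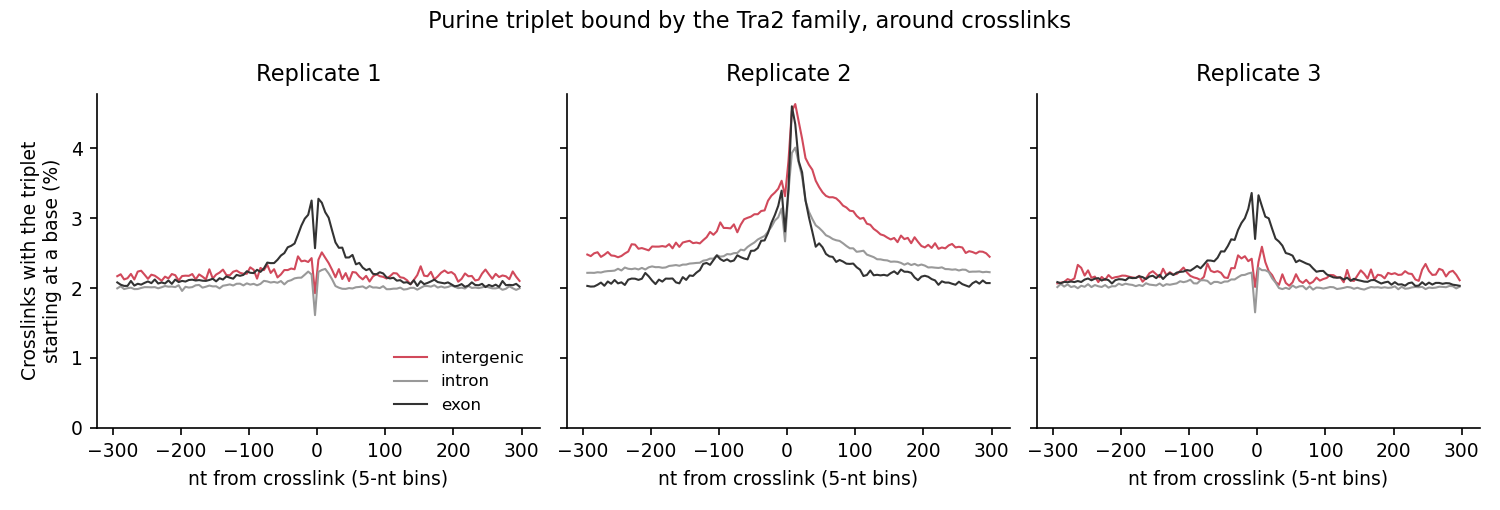
Share of crosslinks with GAA starting at each distance from the crosslink (mean of 5-nt bins, y axis from 0), for intergenic sequence, introns and exons in each library. The intergenic line rises near the crosslink most in replicate 2, where the mean is 4.19% over the 30 nt downstream against 2.53% more than 200 nt away, and the exon line rises in each library.

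The ranking of pentamers depended on the recurrent clusters. Among 827 pentamers present in at least 1% of windows in each library, CACGA had the highest ratio, 2.74, 1.70 and 5.28 in replicates 1, 2 and 3, followed by ACGAG with a mean of 2.98 ± 2.005 (SD, n = 3). The next were TCGAG with 2.91 ± 1.98, then CGAGG with 2.64 ± 1.68 and GCCGG with 2.38 ± 1.45. Replicate 3 was the highest and replicate 2 the lowest for each of them. GAAGA ranked 30, AGAAG 40 and AAGAA 47. Of the first 20 pentamers, 1 contained GAA, where 41 of the 827 did, which is about the same share.

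When the 373 clusters were left out, an alternative chosen after the data were seen, the order changed. GAAGA then ranked 1 of 804, with ratios of 1.32, 1.83 and 1.31 and a mean of 1.49 ± 0.299, and it was present in 14.6%, 24.4% and 14.6% of windows. AGAAG ranked 2, with 1.36 ± 0.252, GGAAG ranked 3 with 1.35 ± 0.247 and AAGAA ranked 5 with 1.31 ± 0.263 (SD, n = 3). Each of these ratios was above 1 in all 3 libraries and highest in replicate 2. Of the first 20 pentamers, 10 contained GAA and 14 consisted of A and G only, where 41 and 32 of the 804 did. CGAGG, the only one of the 5 former leaders still present in 1% of windows in each library, fell to rank 36, with ratios of 1.06, 0.980 and 1.46. With the clusters included, the mean ratio of GAAGA was 1.41 ± 0.338 for intergenic crosslinks, 1.45 ± 0.375 for introns and 2.26 ± 0.260 for exons.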

How the data were processed

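Tra2β iCLIP was performed by the authors in 3 biological replicates of adult mouse testis and processed with the iMAPS pipeline. The submitters' processing notes name Trim Galore 0.6.7, Bowtie 1.3.1, STAR 2.7.9a, UMI-tools 1.1.2 and the build mm39. The deposited values are counts of unique cDNAs per crosslinked nucleotide and strand, neither normalised nor pooled. How reads with several matches were treated is not given in the sources used here, and this can decide where crosslinks of multi-copy RNAs are placed.

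Positions were compared with all 78289 gene bodies of GENCODE M39 in Python 3.11.15 with numpy 2.4.6 and pandas 2.3.3. Densities were taken over intergenic bases of each strand without undetermined bases. Distances run from the nearest gene end or start in the direction of transcription. Shares have Clopper-Pearson 95% intervals (scipy 1.17.1), which cover counting error only. CPM are crosslinks scaled to a library total of 1000000. Distance, base and cluster counts were checked on a simulated chromosome. Sequences are from GRCm39.

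Named items followed a rule of highest mean CPM: 10 clusters, 5 clusters beyond 50 kb, 10 stretches, 10 genes with crosslinks within 10 kb downstream, 5 pentamers with 3 GAA pentamers, and the extreme chromosomes. The members, lists and rules were chosen with earlier results of these data known. The U1 sequence, the list of 10 long stretches and single-library examples were chosen after their values were seen. Alternatives changed gene sets, gaps, windows, weights, chromosomes and libraries. With 1 group, no test between groups was possible. The sequence content of some clusters is not reported here.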

Additional observations from a re-analysis of the deposited data

How the results depend on the processing

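Of 44 alternatives over 6 results, 37 stayed within the spread between libraries or, for counts, within 1.5 times. No ratio crossed 1, and a change of direction was defined for ratios alone. Except for the results on clusters, leaving out 1 replicate only averaged the values of the other libraries. With 3 libraries such a mean cannot leave the spread, so these alternatives were no check. The count of 373 intergenic clusters seen in all libraries became 669 with a gap of 50 nt, and without 1 replicate, when crosslinks from the remaining 2 libraries suffice, it ranged from 1141 to 1514. The share of intergenic crosslinks in these clusters ranged from 6.80% to 10.98% without 1 replicate, and the highest value was reached without replicate 2. The GAA ratio was 1.09 with a window of 15 nt on either side, where it was 1.04, 1.197 and 1.05 in replicates 1, 2 and 3. The strand ratio within 1 kb of gene ends was 3.46 over bases more than 10 kb from every gene of the opposite strand. No paired analysis was possible because the series has 1 group. The share of crosslinks on repeats marked in lower case was not run because the reference genome holds no lower case. Depth limits single positions, since over 97% carry 1 cDNA.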

Other observations

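Some intergenic stretches were almost limited to 1 library. Of 468 stretches with at least 20 crosslinks, 441 were seen in all 3 libraries. No such share over stretches of all classes is given here, so neither this count nor those that follow can be read as particular to intergenic sequence. Replicate 2 alone held 6 stretches with 507 crosslinks, replicate 3 alone held 1 with 81 and replicate 1 alone held 0. The strongest of these (chr3:19513739-19514538, plus strand) had 0, 367 and 0 crosslinks in replicates 1, 2 and 3 over 800 nt, 128491 nt past the nearest same-strand gene end. That of replicate 3 (chr12:12250370-12250376, minus strand) had 0, 0 and 81 crosslinks in 7 nt. The stretch behind Gm61783 on the X chromosome, 17053 nt long, had 5, 359 and 8 crosslinks. At chr1:48501453-48501463 on the minus strand, directly before the small nuclear RNA gene Gm23240, there were 0, 68 and 1. What sets these loci apart was not tested.

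A run of 15 A was found in 24 of the 373 clusters seen in all libraries, or 6.43%, and in 0.996% of the clusters seen in a single library. These 24 clusters held 42, 156 and 50 crosslinks, and replicate 2 was the highest by CPM in 16 of them. GAAGAAGAA was found in 5 of the 373 clusters, or 1.34%, and in 1.25% of the clusters seen in a single library.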
